A study of Homo sapiens with 15 samples.

Results

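The proteasome genes of THP-1 cells, a human line grown from an acute monocytic leukaemia, were followed after exposure to antibody drugs against tumour necrosis factor (TNF). Members were all probe sets outside the array's control spots that carry 1 gene symbol beginning with PSMA, PSMB, PSMC, PSMD or PSME and a digit, without pseudogenes. This gave 84 of the 54613 such probe sets on the array, from 44 genes. Of these, 69 probe sets of 37 genes belong to subunits, assembly chaperones or activators of the proteasome, and 15 probe sets of 7 genes belong to antisense RNAs, divergent transcripts and binding partners that share the name stem. The last were kept apart.

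Each of 15 RNA samples was run on 1 Affymetrix array of human genes, with 3 arrays in each of 5 groups. The groups were untreated cells at 0 h, cells exposed to infliximab for 6 h, to infliximab for 24 h, to CDP870 for 6 h and to CDP870 for 24 h. Infliximab is a chimeric IgG1 antibody. CDP870, known as certolizumab pegol, is an antibody fragment joined to polyethylene glycol and lacks the Fc part. No dose is given in the labels, and no untreated cells were taken at 6 or 24 h, so exposure to a drug and time in culture cannot be told apart in any comparison with untreated cells. The comparison of both drugs at the same time does not have that limit. Replicate numbers are those of the labels: 2, 3 and 4 for untreated cells, 8, 9 and 10 for infliximab at 6 h, 5, 6 and 7 for infliximab at 24 h, 14, 15 and 16 for CDP870 at 6 h, and 11, 12 and 13 for CDP870 at 24 h. The design calls them biological replicates but does not describe separate cultures, so each p-value reflects only how much these samples varied, which may be partly technical.

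The proteasome degrades proteins tagged with ubiquitin. Its core is a barrel of stacked rings, with PSMA subunits in the outer rings, which gate the entrance, and PSMB subunits in the inner rings, of which PSMB5, PSMB6 and PSMB7 cut the protein. Interferon-responsive cells can build PSMB8, PSMB9 and PSMB10 in their place, giving the immunoproteasome, which favours peptides suited to MHC class I. The regulatory particle caps the barrel: its PSMC ATPases unfold the substrate, and its PSMD subunits form the scaffold, bind ubiquitin and remove it. PSME proteins are alternative caps.

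Values are deposited log2 probe set summaries. A probe set was tested where its value lay above the array's median on at least 3 of the 15 arrays, which held for 28897 probe sets, among them 60 probe sets of 36 of the 37 proteasome genes. PSMA8, the testis form of an outer ring subunit, was not tested and lay between 0.79 and 1.04 on all arrays. A difference passed the test where the limma p-value, adjusted over all tested probe sets by Benjamini-Hochberg, was under 0.05. Where a gene has several probe sets, the tested one with the highest mean stands for it, and other probe sets are named where they disagree. PSMB11, PSMC5, PSMD7 and PSMD13 were not analysed here. On 5 probe sets PSMA2, PSMA6 or PSME2 shares the annotation with another gene, so these are no members and give no value for a gene; 4 of them were in the fit and none passed in any of the 9 comparisons. No level of one gene was set against that of another. In bulk RNA, fewer cells expressing a gene and less RNA per cell cannot be told apart.

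Among 10 myelomonocytic markers, LYZ, PTPRC, SPI1, CSF1R, MPO and ITGAM lay above the array median on all 15 arrays, CD14 on 2 and FCGR1A on 0, while CD33 and CD68 had no probe set of their own. Of the 3 markers listed for epithelial cells, 2 rose with infliximab, and the untested CDH1 was lower. CDH1 lay between 2.25 and 2.28 untreated, between 1.79 and 2.04 at 6 h and between 1.80 and 2.05 at 24 h of infliximab. With CDP870 it lay between 2.02 and 2.07 at 6 h and between 1.93 and 2.09 at 24 h. EPCAM and KRT19, the 2 tested of 3 markers on that list, rose by 0.84 ± 0.10 (SE; adjusted p = 0.000137) and 0.62 ± 0.13 (adjusted p = 0.0108) at 6 h and by 0.56 (adjusted p = 0.0032) and 0.67 (adjusted p = 0.00798) at 24 h in the limma fit, and CDH1 lay below the array median on all arrays. The log2 of the summed level of the 3 genes ran from 6.79 to 6.93 in untreated cells, from 7.47 to 7.73 and from 7.38 to 7.47 with infliximab at 6 and 24 h, and from 6.36 to 6.52 and from 6.34 to 6.55 with CDP870. The part of this in the proteasome results was not tested. No tested marker on the lists for T cells, B cells and fibroblasts passed in any comparison, and among the myelomonocytic markers CSF1R rose at 24 h of infliximab (0.73, limma adjusted p = 0.0389). An earlier analysis of these data found 3 arrays apart from the rest, replicate 3 of the untreated group and replicates 5 and 6 of infliximab at 24 h. The 6 h counts below are given with and without them. Without them only replicate 7 of infliximab at 24 h remains, so no 24 h test is given for that fit. Infliximab 24 h replicate 6 also differed in the gap between the 3′ and 5′ control probe sets of GAPDH (0.24, against -0.13 to 0.02 on the other 14 arrays). Array weights fitted by limma, lower for arrays that depart more from their group, did not pick out the same 3. The lowest were 0.291 for untreated replicate 3 and 0.356 and 0.431 for infliximab 24 h replicates 5 and 7. Infliximab 24 h replicate 6 had 0.706 and CDP870 24 h replicate 13 had 0.523.

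Calls among the proteasome genes were few and all in one direction, lower with infliximab. At 6 h of infliximab, 8 of 60 probe sets, of 6 genes, fell and 0 rose, against a background of 4.4% of all tested probe sets that fell and 4.02% that rose. At 24 h, 7 probe sets of 5 genes fell and 0 rose, against a background of 2.79% that fell and 3.78% that rose. Calls were commoner among probe sets with a mean of 7 or more, a level chosen after the values were seen. There 6 of 46 proteasome probe sets fell at 6 h, against 440 of all 4711, and 6 of 46 at 24 h, against 376. The excess over the background was thus smaller at a like level. With CDP870, 0 probe sets passed at 6 h and 0 at 24 h, against a background of 0.0% in each. At an unadjusted p under 0.05 in the limma fit there were 2 and 2, against 4.68% and 4.7% of all tested probe sets. Both infliximab comparisons share the untreated arrays. These counts depended on the arrays and the model. Leaving out any 1 array of the groups compared gave 3 to 5 calls at 6 h and 3 to 7 at 24 h. Those fits gave 1156 to 1764 and 1120 to 2620 calls among all 28897 tested probe sets. Leaving out the 3 arrays that stood apart gave 10 at 6 h. At 24 h it left only infliximab replicate 7, so no count is given for that time. A fit of only the groups compared gave 6 calls at 6 h and 0 at 24 h, and one with the spike-in mean as a covariate 0 and 4. The fit without the 3 arrays and that of only the groups compared have no background over all tested probe sets here. Their changes in count are therefore not shown to be particular to proteasome genes.

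The shift was small, and at 6 h of infliximab the ATPases and the assembly chaperones did not share it (medians 0.01 and 0.03). Relative to the untreated mean of each probe set, the median over the 60 probe sets was -0.18, -0.14 and -0.14 on the infliximab 6 h arrays and -0.16, -0.17 and -0.15 on the infliximab 24 h arrays. It was 0.00, -0.02 and 0.05 for CDP870 at 6 h and -0.05, -0.05 and -0.02 at 24 h. All 6 infliximab arrays thus lay below the other 9, while the median over all tested probe sets stayed between -0.04 and 0.04 on every array. In the fit, the median change of the 60 was -0.17 at 6 h, with 44 (73.3%) below 0, and -0.15 at 24 h, with 53 (88.3%) below 0. Over all tested probe sets the medians were -0.04 and -0.02, with 56.7% and 54.5% below 0. For probe sets with a mean of 7 or more, a level chosen after the values were seen, the medians at 6 h were -0.17 for 46 proteasome probe sets and -0.02 for all 4711.

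**Figure D1:**
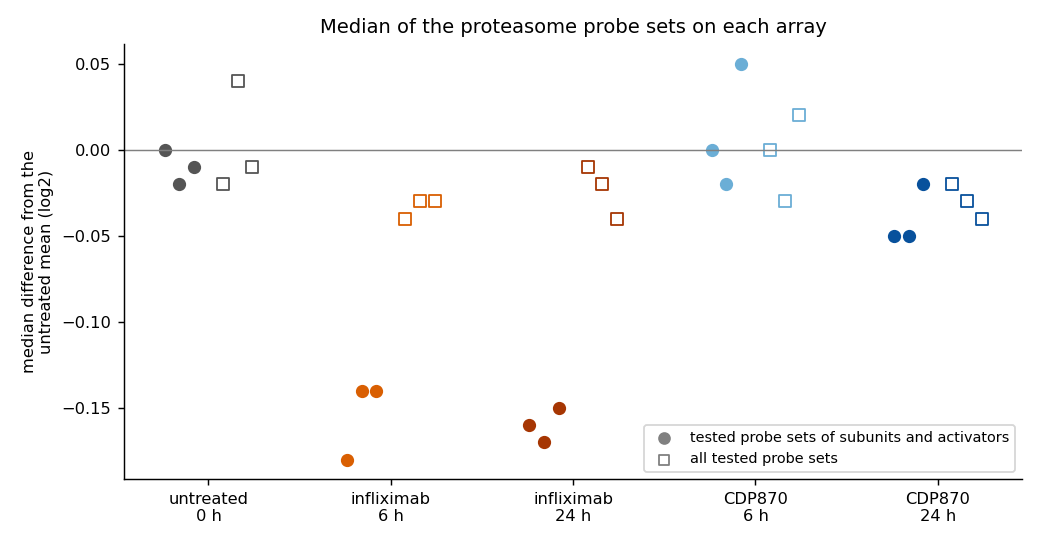
Median difference from the untreated mean on each array (log2), for the 60 tested probe sets of subunits and activators (filled circles) and for all 28897 tested probe sets (open squares); each symbol is 1 array, 3 per group. The proteasome medians of the 6 infliximab arrays lie between -0.18 and -0.14, and those of the other 9 arrays between -0.05 and 0.05.

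The non-ATPase subunits of the regulatory particle held most of the calls. Among 15 probe sets of 9 genes, 5 fell at 6 h and 4 at 24 h, 14 and 15 of the 15 had changes below 0, and the medians were -0.21 and -0.25. PSMD1 and PSMD2, the large scaffold subunits to which ubiquitin receptors dock, and PSMD11 and PSMD12, helical subunits of the lid, supplied them.

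PSMD11 was the one gene lower in all 4 comparisons of infliximab with untreated or CDP870 cells. On its probe set 208777_s_at untreated arrays gave 8.76, 8.55 and 8.63. Infliximab arrays gave 8.19, 8.20 and 8.21 at 6 h and 8.04, 8.03 and 8.23 at 24 h. CDP870 arrays gave 8.76, 8.61 and 8.75 at 6 h and 8.62, 8.73 and 8.67 at 24 h. Every infliximab array lay below every other array, with no overlap. The change against untreated cells was -0.45 ± 0.09 (SE; n = 3 against 3; limma adjusted p = 0.00739) at 6 h, which is 0.73 of the untreated level, and -0.55 ± 0.09 (limma adjusted p = 0.00223) at 24 h, which is 0.68 of it. Against CDP870 the difference was -0.51 (limma adjusted p = 0.00296) at 6 h and -0.57 (limma adjusted p = 0.00131) at 24 h. These 4 calls held when any 1 array of the groups compared was left out. In a fit of only the groups compared both 24 h calls were lost (adjusted p = 0.115 against untreated cells and 0.0537 against CDP870), and with the spike-in covariate the 6 h call against untreated cells was lost (adjusted p = 0.174). With CDP870 itself PSMD11 changed by 0.06 (95% interval -0.13 to 0.25) and 0.03 (-0.16 to 0.22).

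The other PSMD11 probe set, 208776_at, gave 5.26, 5.20 and 5.36 untreated, 4.61, 4.75 and 4.49 at 6 h of infliximab and 4.96, 4.82 and 4.80 at 24 h. It also fell, by 0.66 (limma adjusted p = 0.00139) and by 0.41 (limma adjusted p = 0.0242). Here the CDP870 arrays reached down to 4.90 at 6 h and 5.07 at 24 h, so that they overlapped the infliximab 24 h range at 6 h but lay above all infliximab 6 h values. The difference from CDP870 passed at 6 h (-0.39, limma adjusted p = 0.0252) and missed at 24 h (-0.29, limma adjusted p = 0.112). The 6 h call against untreated cells held without any 1 array. The 24 h call did not hold without untreated replicate 2 or 4 or infliximab replicate 6 or 7, nor the CDP870 one without infliximab replicate 8 or 10 or CDP870 replicate 14 (adjusted p from 0.0504 to 0.118).

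PSMD1 was called lower against untreated cells at both times, and against CDP870 at 6 h only. Probe set 201199_s_at gave 8.38, 8.48 and 8.36 untreated, 7.76, 7.85 and 7.87 at 6 h of infliximab, and 8.10, 8.10 and 7.95 at 24 h. CDP870 arrays gave 8.31, 8.29 and 8.41 at 6 h and 8.27, 8.23 and 8.41 at 24 h, above all infliximab arrays. PSMD1 fell by 0.58 (SE 0.09; limma adjusted p = 0.00106) at 6 h, to 0.67 of the untreated level, and by 0.36 (SE 0.09; limma adjusted p = 0.0225) at 24 h. The difference from CDP870 was -0.51 (limma adjusted p = 0.00227) at 6 h and -0.25 (limma adjusted p = 0.0992) at 24 h. Between the infliximab times the difference was 0.22, with a limma adjusted p of 0.34. Its second probe set, 201198_s_at, fell by 0.50 (limma adjusted p = 0.0263) at 6 h and gave -0.41 (limma adjusted p = 0.0706) at 24 h. The calls of 201199_s_at at 6 h held without any 1 array. Its 24 h call was lost without untreated replicate 2 or 3 or infliximab replicate 7 (adjusted p from 0.0539 to 0.0608), and the 6 h call of 201198_s_at without untreated replicate 2 or 4 or infliximab replicate 8 or 9 (adjusted p from 0.061 to 0.116).

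PSMD2 showed a smaller difference at 6 h. Its probe set gave 8.09, 8.29 and 8.21 untreated and 7.82, 7.86 and 7.74 at 6 h of infliximab, with no overlap, against 7.99, 8.11 and 7.75 at 24 h, where replicate 6 lay within the untreated range. The fall at 6 h was 0.39 (limma adjusted p = 0.0294), and the difference from CDP870 was -0.35 (limma adjusted p = 0.0472). At 24 h the value was -0.25 (limma adjusted p = 0.181). The call against untreated cells was kept in 1 of the 6 fits that left out 1 array, the one without untreated replicate 2, and that against CDP870 in the one without CDP870 replicate 15. In the other 5 the adjusted p reached 0.103 and 0.168.

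PSMD12 was called at 24 h. Its probe set 202352_s_at gave 8.70, 8.47 and 8.62 untreated, 8.32, 8.28 and 8.31 at 6 h of infliximab, 8.05, 8.13 and 8.34 at 24 h, 8.47, 8.54 and 8.61 at 6 h of CDP870 and 8.65, 8.68 and 8.43 at 24 h. No infliximab array reached any other array. PSMD12 fell by 0.42 (limma adjusted p = 0.0221) at 24 h and differed from CDP870 by -0.41 (limma adjusted p = 0.0242). The 6 h values were -0.29 (limma adjusted p = 0.0901) against untreated cells and -0.24 (limma adjusted p = 0.163) against CDP870. The 24 h change was no longer called without untreated replicate 2 or 4 or infliximab replicate 5 or 6. The difference from CDP870 was lost without infliximab replicate 5 or 6 or CDP870 replicate 11 or 12 (adjusted p from 0.0635 to 0.105 in these fits).

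The other non-ATPase genes did not pass. PSMD6, a lid subunit, gave -0.21 (limma adjusted p = 0.123) and -0.28 (limma adjusted p = 0.0533), with no overlap with untreated arrays at either time. PSMD4, a ubiquitin receptor, and PSMD8 gave -0.21 and -0.22 at 6 h. PSMD14, the subunit that removes ubiquitin from the substrate, gave 0.10 at 6 h and a value just below 0 at 24 h, and PSMD3, a scaffold subunit, gave -0.02 and -0.06.

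**Figure D2:**
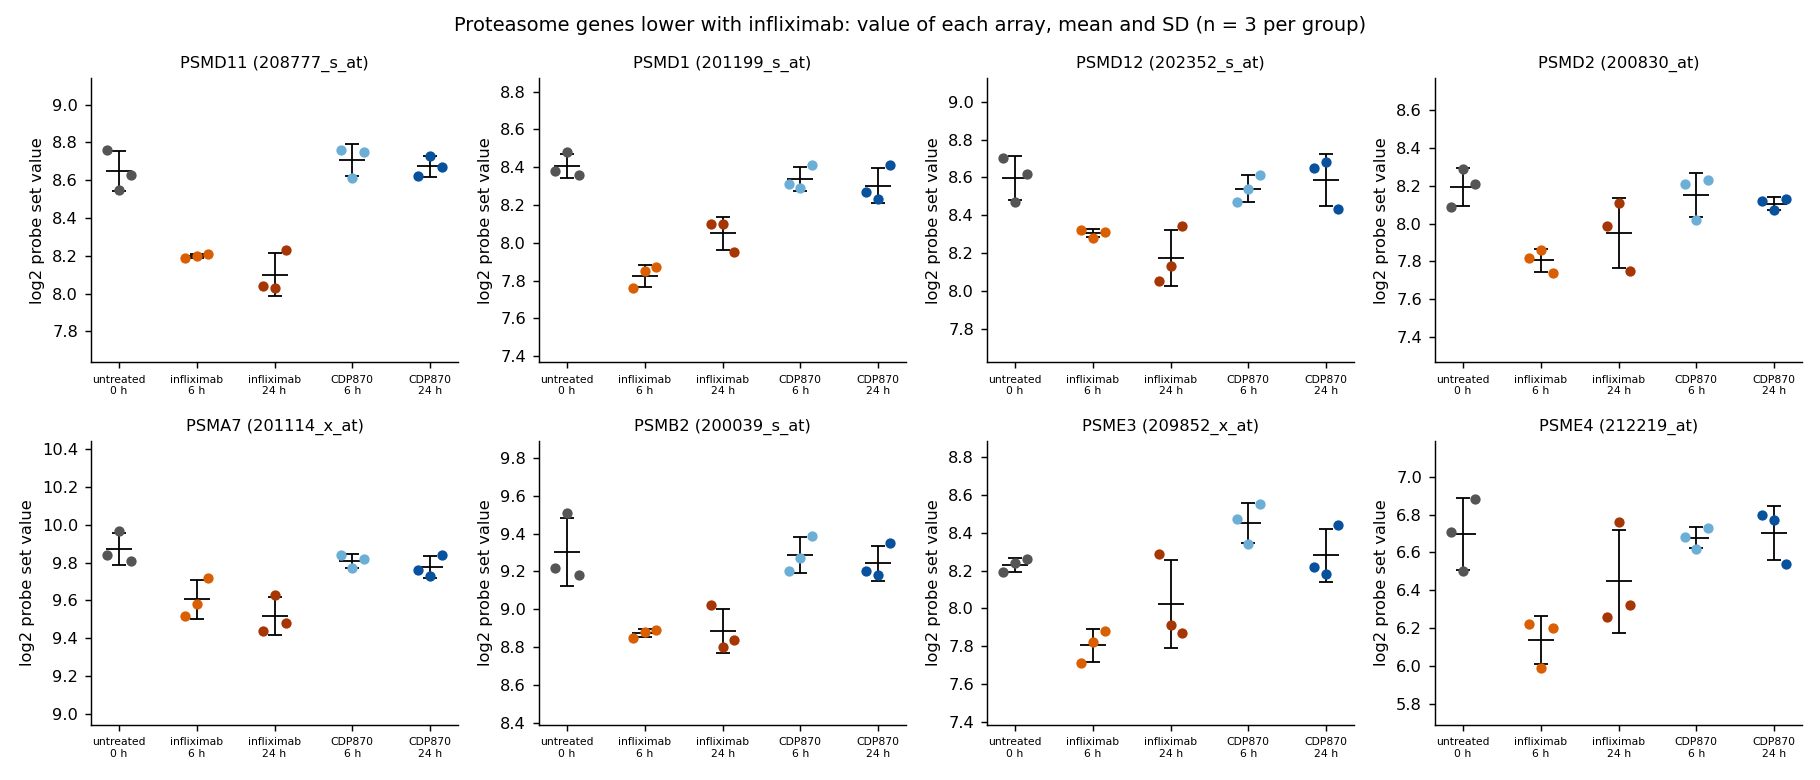
Log2 probe set value on each of the 15 arrays for the 8 proteasome genes lower with infliximab in at least 1 comparison, with the mean and SD of each group of 3 (black); every panel spans 1.5 log2 units. For PSMD11, all 6 infliximab arrays lie at or below 8.23 and the other 9 at or above 8.55, whereas for PSMD2, PSME3 and PSME4 1 infliximab 24 h array lies at or above the lowest untreated value.

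Promoter sequence is shown for 4 genes to set the called PSMD11, PSMD12 and PSME4 beside the uncalled immunoproteasome gene PSMB9. The letters searched were TGACNNNGC, the core of the antioxidant response element, the site known for NFE2L1 and NFE2L2, transcription factors that act on proteasome genes. RefSeq windows (GRCh38.p14) from 250 bases before to 50 after the start were matched for 32 of the 37 genes. On either strand 10 of the 32 (31.2%) held the letters, against 13.6% of all 27305 windows of the same length. Of the other motifs searched on both strands, the core of the interferon-stimulated response element was in 4 (12.5%, against 3.65% of all), and TTCNNNGAA, the gamma-activated site, in 5 (15.6%, against 7.88%). CCAAT was in 15 (46.9%, against 35.7%), TGACTCA, an AP-1 like site that can lie within TGACNNNGC, in 1 (3.12%, against 4.92%), and TGATGNAAN, the core of the amino acid response element, in 0 (against 3.67%). TGANNNNGC, which includes every TGACNNNGC, was in 20 (62.5%, against 42.1%). Shown are the 250 bases before each start, 5′ to 3′ along the gene, with the matches in capitals: PSMD11 at chr17:32444260-32444509 (plus strand), PSMD12 at chr17:67366578-67366827 (minus strand), PSME4 at chr2:53970994-53971243 (minus strand) and PSMB9 at chr6:32853942-32854191 (plus strand).
PSMD11: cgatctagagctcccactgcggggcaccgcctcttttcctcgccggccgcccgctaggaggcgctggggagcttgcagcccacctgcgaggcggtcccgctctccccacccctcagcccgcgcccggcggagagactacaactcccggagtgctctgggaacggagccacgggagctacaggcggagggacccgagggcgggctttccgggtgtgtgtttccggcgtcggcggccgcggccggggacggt
PSMD12: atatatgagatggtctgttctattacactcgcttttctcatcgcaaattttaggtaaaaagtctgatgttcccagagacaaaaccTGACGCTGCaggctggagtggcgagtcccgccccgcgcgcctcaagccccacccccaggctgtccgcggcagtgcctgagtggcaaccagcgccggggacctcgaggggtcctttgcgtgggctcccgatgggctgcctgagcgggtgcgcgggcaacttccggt
PSME4: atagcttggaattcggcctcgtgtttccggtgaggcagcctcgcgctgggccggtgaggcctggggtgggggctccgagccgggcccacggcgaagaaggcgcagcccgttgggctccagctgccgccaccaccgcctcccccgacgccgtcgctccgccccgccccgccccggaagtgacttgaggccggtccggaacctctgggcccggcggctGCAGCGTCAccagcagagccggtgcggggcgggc
PSMB9: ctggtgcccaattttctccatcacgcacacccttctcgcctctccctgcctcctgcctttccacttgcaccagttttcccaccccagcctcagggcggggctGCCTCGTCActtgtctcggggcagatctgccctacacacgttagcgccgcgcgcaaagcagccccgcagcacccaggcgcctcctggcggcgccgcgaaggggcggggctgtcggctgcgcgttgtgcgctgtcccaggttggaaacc
PSMD12 and PSME4 hold the same 9 letters, TGACGCTGC, on opposite strands, PSMB9 holds TGACGAGGC on the minus strand of the gene, and PSMD11 holds none in this window. Called and uncalled genes are thus found both with and without a match, and a match says nothing of binding in these cells.

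The ATPases, which form the ring that unfolds substrates, held no call. Among 7 probe sets of 5 genes the medians were 0.01 at 6 h and -0.08 at 24 h of infliximab, and 3 and 5 had changes below 0. PSMC1 gave 9.07, 8.72 and 8.79 untreated, 8.74, 8.69 and 8.65 at 6 h of infliximab, 8.75, 8.64 and 8.75 at 24 h, 8.90, 8.95 and 8.96 at 6 h of CDP870 and 8.85, 8.85 and 8.96 at 24 h. The infliximab arrays overlapped the untreated ones but not those of CDP870 at the same time, with a difference of -0.24 (limma adjusted p = 0.125) at 6 h. The smallest p-value of the group against untreated cells belonged to PSMC2 on 201067_at, in the opposite direction. That probe set gave 6.09, 6.05 and 6.19 untreated, 6.32, 6.54 and 6.40 at 6 h of infliximab and 6.64, 6.15 and 6.48 at 24 h, and 6.11, 6.19 and 6.17 at 6 h and 6.16, 6.22 and 6.07 at 24 h of CDP870. All infliximab 6 h arrays lay above the untreated ones, and at 24 h replicate 6 lay among them. The changes were 0.31 (limma adjusted p = 0.108) and 0.31 (limma adjusted p = 0.121). The probe set that stands for PSMC2, 201068_s_at, gave 0.01 and -0.06.

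The chaperones that assemble the regulatory particle, PSMD5, PSMD9 and PSMD10, also held no call among 5 probe sets, and their medians were 0.03 and -0.07. PSMD10, also known as gankyrin, gave 7.08, 6.74 and 7.01 untreated, 7.0, 7.25 and 7.26 at 6 h of infliximab, 6.85, 6.51 and 7.07 at 24 h, 7.03, 7.21 and 7.15 at 6 h of CDP870 and 6.92, 7.08 and 6.91 at 24 h on 1554577_a_at (0.23 at 6 h of infliximab, limma adjusted p = 0.34). PSMD9 gave 7.03, 7.28 and 6.97 untreated, 7.09, 7.03 and 7.19 at 6 h of infliximab, 6.99, 6.91 and 7.0 at 24 h, 7.09, 7.03 and 7.0 at 6 h of CDP870 and 7.02, 7.03 and 7.03 at 24 h on 207805_s_at (-0.13 at 24 h of infliximab, limma adjusted p = 0.459). For both the infliximab arrays overlapped the untreated ones. The other PSMD9 probe set, 209334_s_at, gave 3.52, 3.42 and 3.52 untreated, 3.42, 3.35 and 3.20 at 6 h of infliximab, 3.65, 3.24 and 3.54 at 24 h, 3.73, 3.49 and 3.62 at 6 h of CDP870 and 3.22, 3.37 and 3.37 at 24 h. The drugs did not overlap at 6 h (-0.29, limma adjusted p = 0.121).

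In the outer ring of the core, PSMA7 alone was called, at 24 h. Probe set 201114_x_at gave 9.84, 9.97 and 9.81 untreated, 9.52, 9.58 and 9.72 at 6 h of infliximab, 9.44, 9.63 and 9.48 at 24 h, 9.84, 9.77 and 9.82 at 6 h of CDP870 and 9.76, 9.73 and 9.84 at 24 h. Every infliximab array lay below every other array. PSMA7 fell by 0.36 (limma adjusted p = 0.0254) at 24 h, and its second probe set, 216088_s_at, by 0.39 (limma adjusted p = 0.0251). That second set gave 7.84, 8.11 and 7.87 untreated, 7.71, 7.77 and 7.86 at 6 h of infliximab, 7.43, 7.61 and 7.60 at 24 h, 7.99, 7.97 and 7.93 at 6 h of CDP870 and 7.86, 8.06 and 7.90 at 24 h. Infliximab arrays lay below all others at 24 h but reached the untreated range at 6 h. At 24 h there was a difference from CDP870 of -0.39 (limma adjusted p = 0.0245). At 6 h the changes against untreated cells were -0.27 (limma adjusted p = 0.0765) and -0.16 (limma adjusted p = 0.342). Leaving out untreated replicate 3 or infliximab 24 h replicate 5 ended the 24 h call on both probe sets, as did untreated replicate 2 on 201114_x_at (adjusted p from 0.0591 to 0.078). The difference of 216088_s_at from CDP870 was lost without infliximab replicate 5 or CDP870 replicate 12 or 13.

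The other outer ring genes varied in sign. PSMA3 gave 9.18, 9.08 and 9.19 at 6 h of infliximab and 9.44, 9.52 and 9.48 at 6 h of CDP870, with no overlap (-0.33, limma adjusted p = 0.0674). Untreated arrays gave 9.50, 9.19 and 9.43, of which replicate 3 equalled the highest infliximab value. At 24 h the infliximab arrays gave 8.97, 9.08 and 9.23 and the CDP870 arrays 9.42, 9.60 and 9.30 (-0.35, limma adjusted p = 0.0686). PSMA4 gave 0.12 and 0.05 and PSMA2 0.04 and -0.05 against untreated cells at 6 and 24 h. Over the 11 outer ring probe sets the medians were -0.05 and -0.15.

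Of the inner ring genes, PSMB2, a structural subunit, was lower at both times. Probe set 200039_s_at gave 9.22, 9.51 and 9.18 untreated, 8.85, 8.88 and 8.89 at 6 h of infliximab and 9.02, 8.80 and 8.84 at 24 h. CDP870 arrays gave 9.20, 9.27 and 9.39 at 6 h and 9.20, 9.18 and 9.35 at 24 h. Every infliximab array lay below every other array. The falls were 0.43 (SE 0.10; limma adjusted p = 0.0196) and 0.42 (SE 0.10; limma adjusted p = 0.026), and the difference from CDP870 was -0.41 (limma adjusted p = 0.0221) at 6 h and -0.36 (limma adjusted p = 0.0537) at 24 h. The second tested PSMB2 probe set, 201404_x_at, did not move with it: the values were 0.15 (limma adjusted p = 0.358) and -0.04 (limma adjusted p = 0.868). Untreated replicate 3 was the highest array of 200039_s_at, and without it the changes were no longer called (adjusted p = 0.0709 at 6 h and 0.0818 at 24 h). The 6 h call was also lost without any 1 infliximab array, the 24 h call without infliximab replicate 6 or 7, and the CDP870 difference in every fit but the one without CDP870 replicate 14.

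The 3 catalytic subunits of the standard core stayed short of the threshold. PSMB5, the chymotrypsin-like subunit, gave 8.54, 8.66 and 8.40 untreated, 8.29, 8.26 and 8.25 at 6 h of infliximab, 8.32, 8.25 and 8.32 at 24 h, 8.56, 8.49 and 8.56 at 6 h of CDP870 and 8.33, 8.34 and 8.46 at 24 h. PSMB6, the caspase-like subunit, gave 8.32, 8.68 and 8.19 untreated, 8.20, 8.04 and 8.12 at 6 h of infliximab, 8.25, 8.17 and 8.13 at 24 h, 8.40, 8.39 and 8.43 at 6 h of CDP870 and 8.30, 8.33 and 8.43 at 24 h. PSMB7, the trypsin-like subunit, gave 8.67, 8.69 and 8.60 untreated, 8.44, 8.38 and 8.46 at 6 h of infliximab, 8.49, 8.53 and 8.45 at 24 h, 8.69, 8.64 and 8.74 at 6 h of CDP870 and 8.54, 8.54 and 8.77 at 24 h. PSMB5 and PSMB7 did not overlap with untreated arrays at either infliximab time, whereas PSMB6 did, through untreated replicate 4. Their changes at 6 h were -0.27 (limma adjusted p = 0.0652), -0.28 (limma adjusted p = 0.14) and -0.23 (limma adjusted p = 0.116), and at 24 h they were -0.24, -0.21 and -0.16. Against CDP870 at 6 h they were -0.27 (limma adjusted p = 0.0599), -0.29 (limma adjusted p = 0.121) and -0.26 (limma adjusted p = 0.0658), with all infliximab arrays below all CDP870 arrays for each. Against CDP870 at 24 h they were -0.08 (limma adjusted p = 0.668), -0.17 (limma adjusted p = 0.44) and -0.13 (limma adjusted p = 0.456), again without overlap. With CDP870 itself PSMB5, PSMB6 and PSMB7 changed by -0.16, -0.04 and -0.04 at 24 h against untreated cells, none called. Over all 11 tested probe sets of the constitutive inner ring the medians with infliximab against untreated cells were -0.19 and -0.20, and 9 and 11 had changes below 0.

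No immunoproteasome subunit passed in any of the 9 comparisons. PSMB8 gave 8.96, 9.06 and 8.82 untreated, 8.82, 8.98 and 8.92 at 6 h of infliximab, 8.94, 8.75 and 9.02 at 24 h, 8.91, 8.88 and 8.94 at 6 h of CDP870 and 8.84, 8.82 and 8.95 at 24 h. PSMB9 gave 7.59, 7.88 and 7.54 untreated, 7.44, 7.60 and 7.64 at 6 h of infliximab, 7.75, 7.71 and 7.65 at 24 h, 7.61, 7.66 and 7.66 at 6 h of CDP870 and 7.35, 7.42 and 7.52 at 24 h. PSMB10 gave 8.57, 9.03 and 8.49 untreated, 8.33, 8.36 and 8.52 at 6 h of infliximab, 8.52, 8.45 and 8.40 at 24 h, 8.49, 8.57 and 8.56 at 6 h of CDP870 and 8.50, 8.48 and 8.55 at 24 h. All 3 overlapped with untreated arrays at both infliximab times, and untreated replicate 3 was the highest array of each. The changes of PSMB8, PSMB9 and PSMB10 were -0.04 (95% interval -0.24 to 0.16), -0.11 (-0.32 to 0.10) and -0.29 (-0.55 to -0.04; limma adjusted p = 0.148) at 6 h, and -0.04 (-0.25 to 0.16), 0.03 (-0.18 to 0.25) and -0.24 (-0.49 to 0.01) at 24 h. PSMB9 was higher with infliximab than with CDP870 on all arrays at 24 h, by 0.27, but the limma adjusted p was 0.125.

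**Figure D3:**
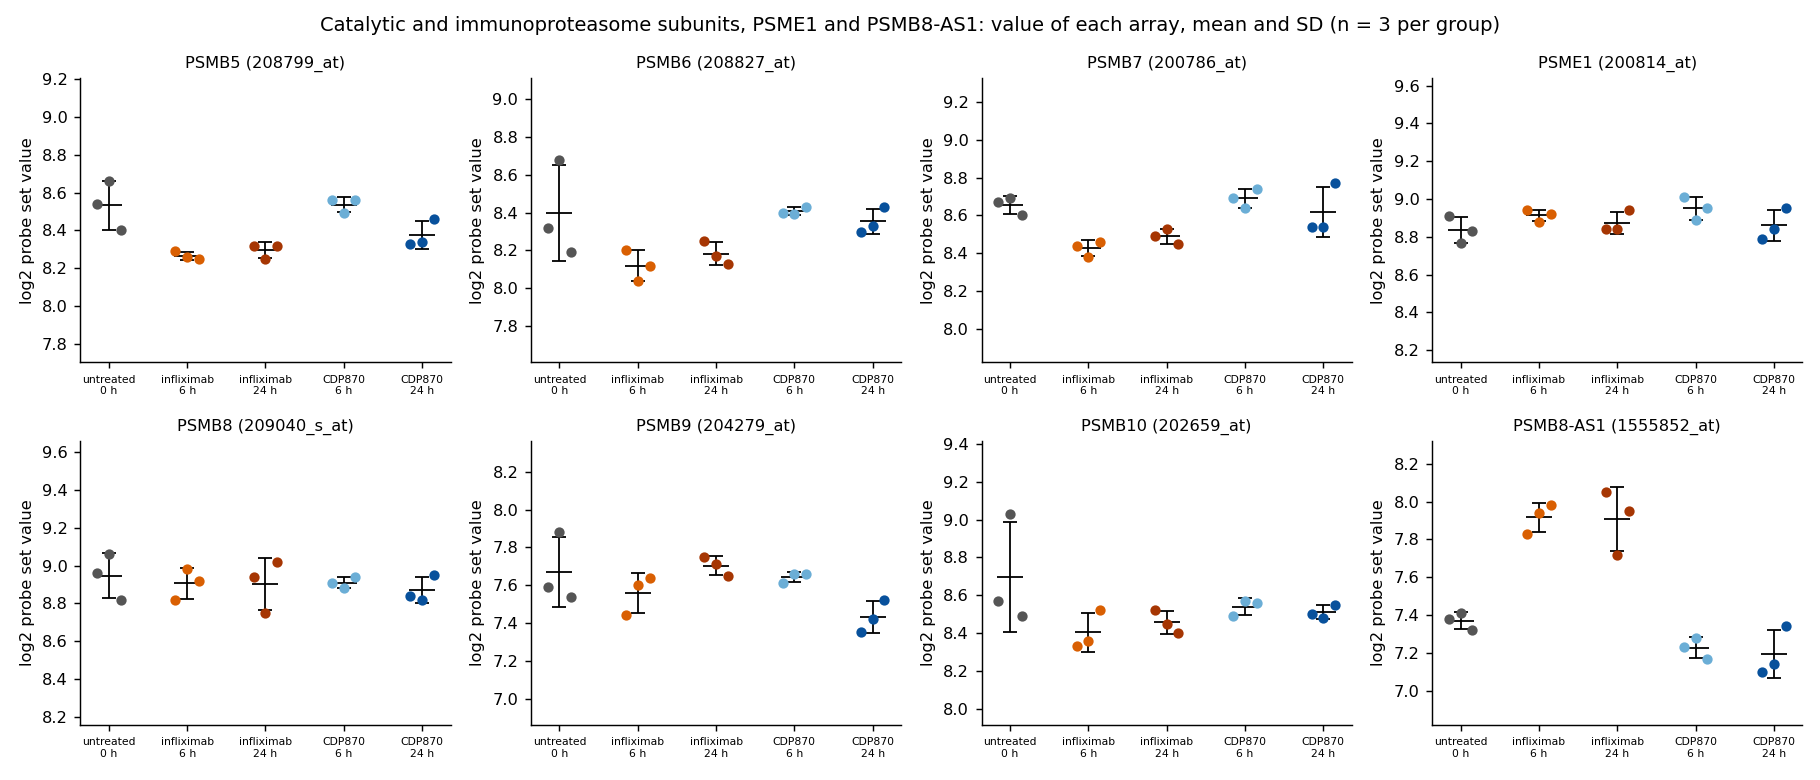
Log2 probe set value on each array for the standard catalytic subunits PSMB5, PSMB6 and PSMB7, the activator PSME1, the immunoproteasome subunits PSMB8, PSMB9 and PSMB10 and the antisense RNA PSMB8-AS1, with the mean and SD of each group of 3 (black); every panel spans 1.5 log2 units. PSMB8-AS1 lies between 7.72 and 8.05 on the 6 infliximab arrays and between 7.10 and 7.41 on the other 9, while PSMB8 overlaps between all groups.

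The activators differed from each other. PSME1, a subunit of the interferon-induced cap, gave 8.91, 8.77 and 8.83 untreated, 8.94, 8.88 and 8.92 at 6 h of infliximab, 8.84, 8.84 and 8.94 at 24 h, 9.01, 8.89 and 8.95 at 6 h of CDP870 and 8.79, 8.84 and 8.95 at 24 h, all overlapping. Its changes with infliximab were 0.08 (95% interval -0.10 to 0.25) and 0.04 (-0.14 to 0.21). PSME2, its partner, has no probe set of its own here.

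PSME3, the nuclear activator also known as REG gamma or PA28 gamma, was lower at 6 h. Probe set 209852_x_at gave 8.19, 8.24 and 8.26 untreated, 7.71, 7.82 and 7.88 at 6 h of infliximab, 8.29, 7.91 and 7.87 at 24 h, 8.47, 8.34 and 8.55 at 6 h of CDP870 and 8.22, 8.18 and 8.44 at 24 h. At 6 h the infliximab arrays lay below all untreated and all CDP870 arrays, and at 24 h replicate 5 lay above every untreated array. PSME3 fell by 0.43 (SE 0.12; limma adjusted p = 0.0338) against untreated cells, a call lost in all 6 fits that left out 1 array (adjusted p from 0.0638 to 0.123). The difference from CDP870 at 6 h was -0.65 (limma adjusted p = 0.00328) and was kept in all 6. The other 3 probe sets gave -0.21, -0.69 and -0.29 against untreated cells at 6 h, none called, and 200988_s_at differed from CDP870 by -1.0 (limma adjusted p = 0.0246), a call lost without infliximab replicate 8 or 9 or CDP870 replicate 14 or 16.

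At 24 h the 4 PSME3 probe sets gave -0.48, -0.18, -0.21 and -0.49, none called. On 209853_s_at, the lowest p-value of the activators at that time, untreated arrays gave 7.50, 7.40 and 7.62, infliximab arrays 6.91, 7.39 and 7.36 at 6 h and 7.50, 6.49 and 7.07 at 24 h, and CDP870 arrays 7.61, 7.43 and 7.57 at 6 h and 7.54, 7.34 and 7.55 at 24 h (limma adjusted p = 0.167 against untreated and 0.203 against CDP870). Replicate 6, the array with the unusual GAPDH gap, was the lowest. The part of that gap in the value was not tested.

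PSME4, a large single-chain activator also known as PA200, gave 6.71, 6.50 and 6.88 untreated, 6.22, 5.99 and 6.20 at 6 h of infliximab, 6.26, 6.76 and 6.32 at 24 h, 6.68, 6.62 and 6.73 at 6 h of CDP870 and 6.80, 6.77 and 6.54 at 24 h on 212219_at. The 6 h infliximab arrays lay below all untreated and CDP870 arrays, and replicate 6 at 24 h lay among them. PSME4 fell by 0.56 (SE 0.14; limma adjusted p = 0.0206) at 6 h and differed from CDP870 by -0.54 (limma adjusted p = 0.0233). At 24 h the value was -0.25 (limma adjusted p = 0.318). The call against untreated cells was lost without untreated replicate 2 or 4 or infliximab replicate 9 (adjusted p from 0.0566 to 0.0926), and that against CDP870 in every fit but the one without infliximab replicate 8. The other PSME4 probe sets gave 0.09 and -0.28 at 6 h, neither called.

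**Figure D4:**
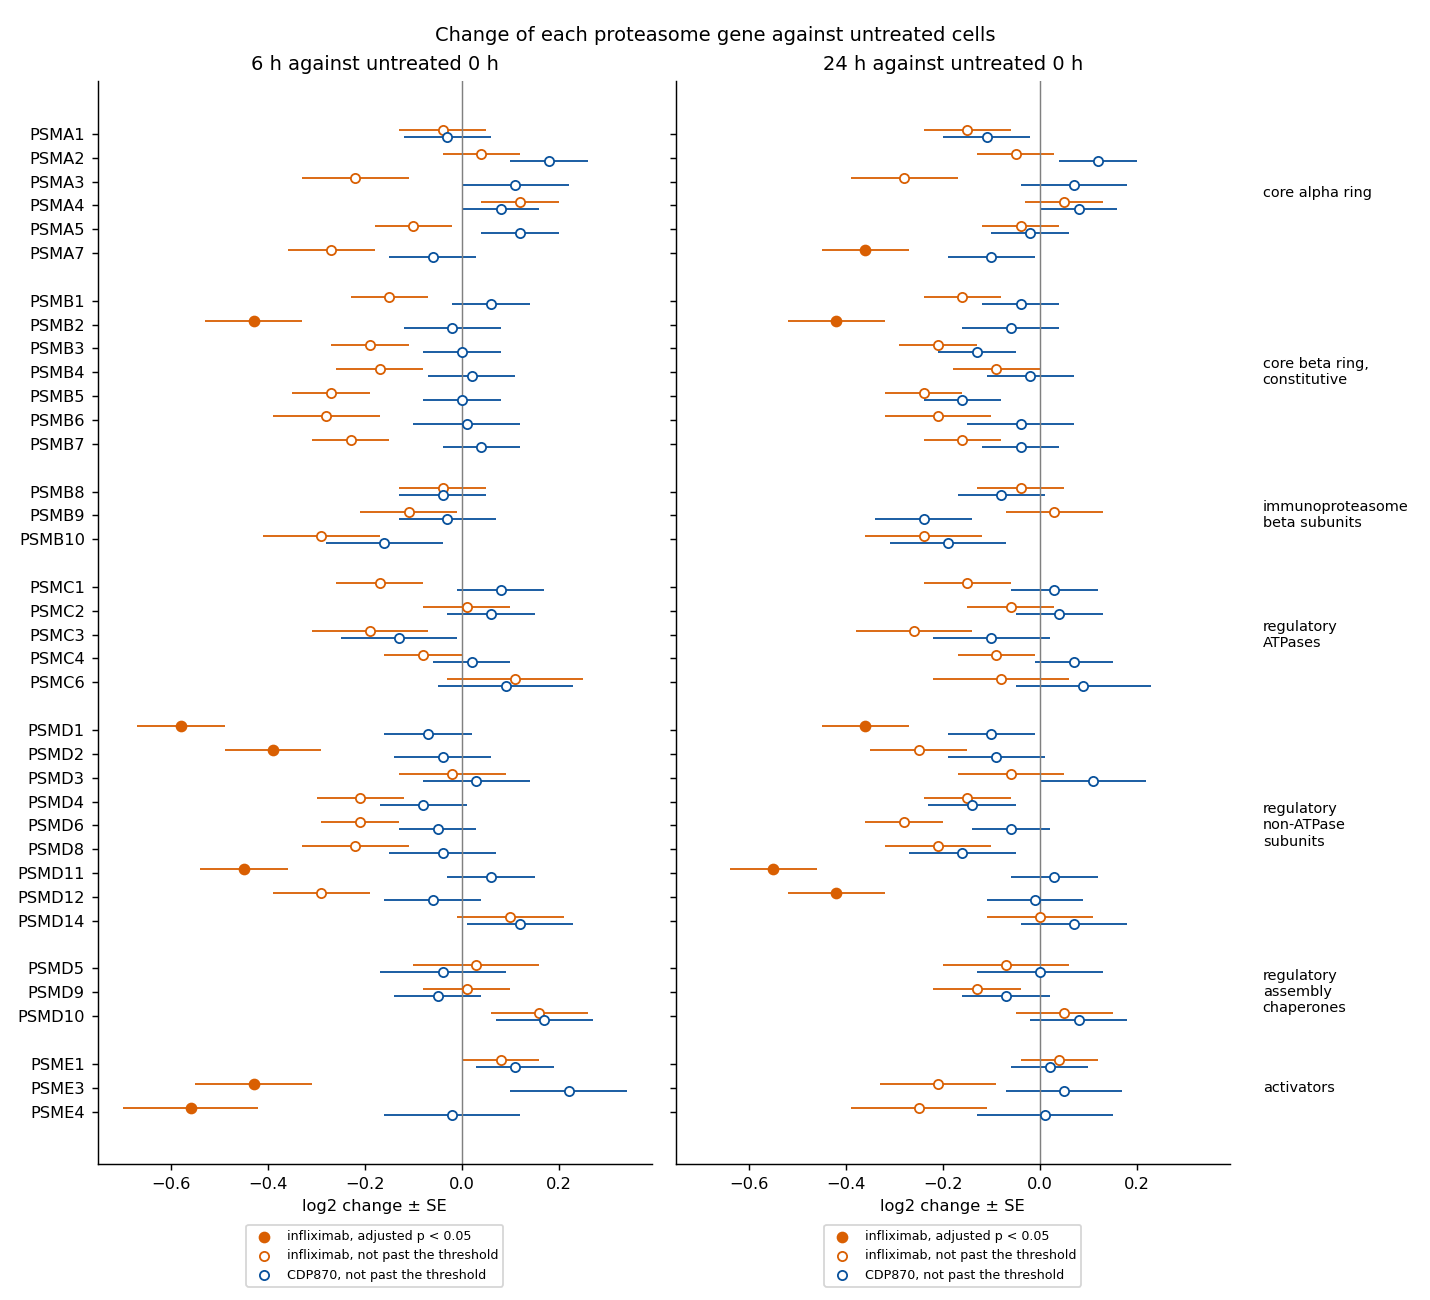
Log2 change against untreated cells with its SE at 6 h (left) and 24 h (right) for the probe set that represents each of the 36 tested proteasome genes, ordered by role; orange is infliximab, blue is CDP870, filled symbols passed the adjusted p of 0.05 (limma) and open ones did not. With infliximab 27 of 36 genes lie below 0 at 6 h and 32 at 24 h, and no CDP870 symbol is filled.

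None of the 8 genes called with infliximab passed with CDP870. At 6 h, on the probe set that stands for each gene, the changes with CDP870 were -0.07 (95% interval -0.25 to 0.11) for PSMD1, -0.04 (-0.26 to 0.17) for PSMD2, -0.06 (-0.27 to 0.16) for PSMD12, -0.06 (-0.25 to 0.12) for PSMA7, -0.02 (-0.24 to 0.20) for PSMB2, 0.22 (-0.02 to 0.47) for PSME3 and -0.02 (-0.31 to 0.27) for PSME4. At 24 h they were -0.10 (-0.29 to 0.08), -0.09 (-0.31 to 0.13), -0.01 (-0.23 to 0.21), -0.10 (-0.28 to 0.09), -0.06 (-0.28 to 0.16), 0.05 (-0.20 to 0.30) and 0.01 (-0.28 to 0.30) in the same order. All of these intervals include 0. That of the other PSMD11 probe set, 208776_at, did not at 6 h: its CDP870 arrays all lay below the untreated ones, by 0.26 on average (95% interval -0.48 to -0.05). The smallest unadjusted p-values with CDP870 belonged to PSMD11 on 208776_at at 6 h (limma adjusted p = 0.997) and PSMA3 on 237300_at at 24 h (-0.36, limma adjusted p = 0.974).

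The drugs were also compared directly, which removes time in culture. At 6 h 8 probe sets of 6 genes were lower with infliximab and 0 higher, against a background of 3.98% lower and 5.1% higher. These were PSMD1, PSMD2, PSMB2 and PSME4 on 1 probe set each and PSMD11 and PSME3 on 2. For 35 of the 60 probe sets all infliximab arrays lay below all CDP870 arrays, against 20.4% of all tested probe sets, and the median difference was -0.17, against -0.03 over all. At 24 h 3 probe sets were lower, of PSMD11, PSMD12 and PSMA7, and 0 higher, against a background of 1.79% lower and 4.73% higher. In 21 of the 60 all infliximab arrays were below, against 8.87%, and the median was -0.14, against 0.00 over all. Among probe sets with a mean of 7 or more, 5 of 46 were called lower at 6 h, against 378 of all 4711. At 24 h 3 of those 46 were lower, against 274 of all 4711. Without the 3 arrays that stood apart the counts were 17 lower and 1 higher at 6 h. No background over all tested probe sets is given for that refit, so the larger count is not shown to be particular to proteasome genes. No count is given for 24 h, where only infliximab replicate 7 was left.

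Counted over the 4 comparisons of infliximab with untreated or CDP870 cells, 8 of 36 genes were lower at least once and 28 were never called. By probe set this was 12 of 60, against a background of 7.15% of all tested probe sets lower in at least 1 of the 4. That background was not matched for level. Neither time course held a call: 0 probe sets passed between 24 and 6 h of infliximab, 0 between 24 and 6 h of CDP870, and 0 for the interaction of drug and time, each against a background of 0.0%, with 5, 4 and 4 proteasome probe sets at an unadjusted p under 0.05 in the limma fit. Those counts stood against 11.9%, 4.97% and 9.14% of all tested probe sets. Of these, PSME4 gave 0.31 (limma adjusted p = 0.395) from 6 to 24 h of infliximab and PSMA7 on 216088_s_at gave -0.23 (limma adjusted p = 0.369). For the interaction, PSME3 on 209852_x_at gave 0.39 (limma adjusted p = 0.518) and PSMB9 0.36 (limma adjusted p = 0.506). The calls at one time and not at the other are therefore not shown to differ between times. Without infliximab 24 h replicate 7, 2 proteasome probe sets passed between the infliximab times, 1 higher and 1 lower, and 1 passed for the interaction. Over all tested probe sets, leaving out 1 array gave 0 to 2462 calls between the infliximab times and 0 to 920 for the interaction.

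Hybridisation spike-ins, RNAs added in fixed amounts, moved with the 6 h result. Their mean was 7.95 ± 0.10 (SD, n = 3) in untreated cells, 8.27 ± 0.04 at 6 h of infliximab, 8.05 ± 0.14 at 24 h, 8.03 ± 0.10 at 6 h of CDP870 and 8.14 ± 0.15 at 24 h. With the spike-in mean as a covariate, 0 of the 60 proteasome probe sets passed at 6 h of infliximab against untreated cells, where 150 of all tested probe sets did, and 4 passed at 24 h. The median change of the 60 was -0.17 at 6 h and -0.15 at 24 h in that fit too.

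Among the 15 non-subunit members, 11 were tested and 1 was called. Of all tested probe sets, 4.02% rose at 6 h of infliximab and 3.78% at 24 h. Against CDP870 the shares that were higher were 5.1% and 4.73%. PSMB8-AS1, an antisense RNA gene named for its neighbour PSMB8, gave 7.38, 7.41 and 7.32 untreated on 1555852_at, 7.83, 7.94 and 7.98 at 6 h of infliximab and 8.05, 7.72 and 7.95 at 24 h. CDP870 arrays gave 7.23, 7.28 and 7.17 at 6 h and 7.10, 7.14 and 7.34 at 24 h. Every infliximab array lay above every other array. PSMB8-AS1 rose by 0.55 ± 0.10 (SE; limma adjusted p = 0.00421) at 6 h and by 0.54 (limma adjusted p = 0.00528) at 24 h, and was higher than with CDP870 by 0.69 (limma adjusted p = 0.00076) and 0.71 (limma adjusted p = 0.000569). These calls held when any 1 array was left out. The second probe set, 1555853_at, gave -0.04 (limma adjusted p = 0.892) and -0.43 (limma adjusted p = 0.0987), so the gene's probe sets disagree. With both averaged, only the difference from CDP870 at 6 h stayed past the threshold (adjusted p = 0.0277), and from a fit of only the groups compared both 24 h calls were lost (adjusted p = 0.131 and 0.0516). PSMA3-AS1 gave 0.49 (limma adjusted p = 0.161) and 0.44 (limma adjusted p = 0.237), and the 4 probe sets of PSME3IP1, a binding partner of PSME3, gave -0.25 to -0.10 at 6 h and -0.24 to -0.17 at 24 h, none called.

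Other genes of the pathway were taken from 4 lists, 1 probe set per gene. Of all tested probe sets, 4.4% fell and 4.02% rose at 6 h of infliximab, and 2.79% fell and 3.78% rose at 24 h. Of 15 assembly chaperones and associated factors, 3 fell at 6 h of infliximab: PSMG3, which helps to build the core (-0.46, limma adjusted p = 0.017), the ubiquitin receptor ADRM1 (-0.41, limma adjusted p = 0.0174) and the ubiquitin ligase UBE3C (-0.58, limma adjusted p = 0.0118). USP14, which trims ubiquitin at the proteasome, fell at 24 h by 0.55 (limma adjusted p = 0.0101). With UBE3C the gene's other probe set disagreed (-0.09, limma adjusted p = 0.77). USP14 also fell at 6 h on another probe set (-0.37, limma adjusted p = 0.0315). None of the 15 rose on the probe set that stands for it, but AKIRIN2, which helps to import proteasomes into the nucleus, rose at 6 h on 1 of its 4 (0.45, limma adjusted p = 0.0207). The list median was -0.15 at 6 h and -0.20 at 24 h, against -0.04 and -0.02 over all tested probe sets.

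Of 16 genes of ubiquitin and substrate delivery, 12 were tested, and 3 fell at 6 h: UBQLN4 (-0.57, limma adjusted p = 0.0153), UFD1 (-0.28, limma adjusted p = 0.0383) and NSFL1C (-0.42, limma adjusted p = 0.0271). UFD1 and NSFL1C, cofactors of the unfolding enzyme VCP, also fell at 24 h, by 0.33 (limma adjusted p = 0.0227) and 0.48 (limma adjusted p = 0.0163). The other UBQLN4 probe set gave 0.22 (limma adjusted p = 0.297) at 6 h. The list medians were -0.15 and 0.00, and 0 rose on any probe set. The background of all tested probe sets was 4.4% lower at 6 h and 2.79% lower and 3.78% higher at 24 h. Of 13 partners of the immunoproteasome in antigen presentation 10 were tested: 0 passed at 6 h, and the transcription factor IRF1 rose at 24 h (0.43, limma adjusted p = 0.0453; 0.19, limma adjusted p = 0.429, on its other probe set).

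Of 8 regulators of proteasome gene transcription, 6 were tested. On the probe set that stands for each gene 0 passed at 6 h and 1 rose at 24 h, against a background of 4.02% and 3.78% that rose. MAFF, a small partner protein of these factors, was called on its other probe set, which rose by 1.17 ± 0.21 (SE; limma adjusted p = 0.00338) at 6 h and by 1.33 ± 0.21 (limma adjusted p = 0.00158) at 24 h. Against CDP870 that probe set was higher by 1.49 (limma adjusted p = 0.000507) and 1.74 (limma adjusted p = 0.000135). The probe set that stands for MAFF gave -0.33 (limma adjusted p = 0.197) and 0.05 (limma adjusted p = 0.878), so the 2 disagree. NFE2L1, the factor that induces proteasome genes when the proteasome is impaired, gave 7.09, 7.23 and 6.94 untreated, 7.42, 7.25 and 7.37 at 6 h of infliximab, 7.86, 7.60 and 7.51 at 24 h, and 6.93 to 7.18 over the 6 CDP870 arrays. All infliximab arrays lay above all others. It rose by 0.57 ± 0.11 (SE; limma adjusted p = 0.00647) at 24 h, and was higher than with CDP870 by 0.66 (limma adjusted p = 0.00226). Its other probe sets gave 0.45 (limma adjusted p = 0.0627) and 0.44 (limma adjusted p = 0.0505) against untreated cells. NFE2L1 RNA was thus higher at 24 h while the called subunits were lower, and no protein was measured. Against CDP870, on the probe set that stands for each gene, infliximab arrays were lower at 6 h for 2 genes of the assembly list (PSMG3, -0.38, and UBE3C, -0.60) and 3 of the delivery list, and higher for 2 regulators, NFE2L3 (0.60) and MAFG (0.35). At 24 h they were lower for UCHL5, USP14 and UFD1 and higher for NFE2L1 and MAFF. The background against CDP870 was 3.98% lower and 5.1% higher at 6 h, and 1.79% lower and 4.73% higher at 24 h. With CDP870 against untreated cells, 0 genes of these 4 lists passed at 6 h and 0 at 24 h, against a background of 0.0% in each.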

How the data were processed

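The authors deposited 1 table of log2 probe set values, 1 column per array. The submitters' processing notes name GCOS 1.3.0 and GCRMA, with no role or order. How arrays were normalized and which background settings applied is not given in the sources used here. That the base is 2 was inferred from the steps between spike-ins, and its zero point is not known, so no value by itself is an amount of RNA. All 15 columns matched a sample by name, and 0 were left over. Gene names come from the platform annotation, updated through RefSeq.

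Groups were compared with limma 3.58.1 in R 4.3.3: 1 mean per group over all 15 arrays, 9 contrasts, and Benjamini-Hochberg adjustment over the 28897 tested probe sets of each. Other steps used Python 3.11.15 and matplotlib 3.10.9. Code was tested on simulated data. The arrays' number limits the precision.

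Members and lists were chosen with earlier results of these data known. All array values were given for the catalytic and immunoproteasome subunits, the activators and the member of each role with the smallest p-value in a comparison of infliximab, on the probe set concerned, and all called members were named. PSME3IP1 was kept because it is annotated as protein-coding, although its symbol ends like a pseudogene's. Alternatives were another normalization, centring, filters, samples, array weights, variance priors, the spike-in mean as a covariate, gene means, and leaving out arrays.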

Additional observations from a re-analysis of the deposited data

How the results depend on the processing

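Counts here are of proteasome probe sets called in either direction; all were lower with infliximab except 1 higher where stated. Against untreated cells, the count at 6 h of infliximab (8) became 16 with array weights (1 higher), 14 with a trended, robust variance prior, 0 with the spike-in mean as a covariate and 4 of 36 with gene means. At 24 h (7) it became 4 without the filter, 0 with only the groups compared and 2 with array weights. With the trended prior it became 11, and with the spike-in covariate 4. Without the 3 arrays that stood apart only infliximab replicate 7 was left at 24 h, so no count is given. For infliximab against CDP870 at 6 h (8) it became 5 with each array centred, 14 with only the groups compared, 23 with array weights (1 higher), 16 with the trended prior, 1 with the spike-in covariate and 18 without the 3 arrays (1 higher), and at 24 h (3) it became 0 with only the groups compared and 7 with the trended prior. Where no value shows it, the cause was not tested. Except for the spike-in covariate at 6 h, no background over all tested probe sets is given for these refits.

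Leaving out 1 array gave 3 to 5 called probe sets at 6 h of infliximab, 3 without infliximab replicate 9, 4 without replicate 8 and 5 without any of the other 4. It gave 3 to 7 at 24 h, 3 without untreated replicate 2, 4 without untreated replicate 3 and 5 without infliximab replicate 6 (1 higher). Against CDP870 it gave 4 to 6 at 6 h, 4 without any infliximab array or without CDP870 replicate 14 or 16, and 1 to 6 at 24 h, 1 without CDP870 replicate 12 and 6 without infliximab replicate 5, and 3 without infliximab replicate 6 (1 higher). Between the infliximab times it gave 0 to 2 (1 higher and 1 lower without replicate 7) and for the interaction 0 to 1 (higher). Over all tested probe sets the counts against untreated cells ran from 1156 to 1764 at 6 h and from 1120 to 2620 at 24 h. Against CDP870 they ran from 1181 to 1688 and from 1074 to 2891. Between the infliximab times they ran from 0 to 2462, and for the interaction from 0 to 920. CDP870 against untreated cells and between its times gave 0 throughout. No named change reversed its sign in any setting, and quantile normalization again and the stricter filter ended none of the 30 calls. No paired analysis was possible because no replicate number occurs in more than 1 group. Low probe sets lie near the array median, where the background step sets how small a difference can be seen.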
